A study of Mus musculus with 6 samples.

Results

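The 8 genes described here are nuclear copies of mitochondrial genes, the pseudogenes Gm29216, Gm28661, Atp6-ps, Gm28437, Gm28438, Gm10222, Gm28439 and Gm13340, out of 49548 genes in the count table. They were chosen by name after earlier results of the same counts had shown their levels in CharmeKO against wild-type (WT) cells, so all that is given on the difference between those groups, the calls of the fits included, is a description and no evidence for it. The libraries were made from native cardiac fibroblasts (CFs), freshly isolated from the hearts of C57BL/6J mice aged 5 weeks. There were 3 WT and 3 CharmeKO libraries. In CharmeKO mice a polyadenylation signal was inserted into the locus of Charme, a long non-coding RNA of muscle and heart. All hearts were enzymatically dissociated, red cells were lysed and cells of the hematopoietic lineages were depleted with antibody-coated beads, so both groups share these treatments. The study's methods name hearts of 3 animals per genotype and 3 RNA samples, described as independent biological replicates.

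Mitochondria carry their own small circular genome, which encodes core subunits of the respiratory chain, ribosomal RNAs and transfer RNAs. Pieces of mitochondrial DNA have been inserted into the nuclear chromosomes during evolution, and the annotation lists the gene-like parts of such insertions as unprocessed pseudogenes. Heart muscle cells (cardiomyocytes) are rich in mitochondria, and mitochondrial messenger RNAs are short, abundant, without introns and polyadenylated. A nuclear copy has no known product of its own, and its reads can be hard to tell from those of the mitochondrial gene it copies. The count table had a row for 0 of the 37 mitochondrial genes of the annotation, so these genes themselves could not be analysed here.

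Each copy was assigned to its mitochondrial gene by aligning its longest annotated transcript to the transcripts of the mitochondrial chromosome (GENCODE annotation of build GRCm38). The counts were made on build GRCm39, and all positions here are those of GRCm38. Between them the 8 members copy 7 of the 13 protein-coding genes of the mitochondrial genome. Gm29216 and Gm13340 are copies of mt-Co1, and Gm28661 and Gm28437 of mt-Co2 and mt-Co3, the genes of the core subunits of cytochrome c oxidase. Atp6-ps is a copy of mt-Atp6, a subunit of the ATP synthase. Gm28438, Gm10222 and Gm28439 are copies of mt-Nd3, mt-Nd4l and mt-Nd4, subunits of NADH dehydrogenase (complex I).

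Of the 8 members, 7 lie side by side on the minus strand of chromosome 1, at chr1:24611535-24616197, a stretch of 4663 bases with no other annotated gene. Read from the 5′ end they stand in the order Gm29216, Gm28661, Atp6-ps, Gm28437, Gm28438, Gm10222 and Gm28439, which is the order of the corresponding genes in the mitochondrial genome. The gaps between neighbours run from 2 to 233 bases, and Gm10222 and Gm28439 overlap by 4 bases. Gm13340 lies on the minus strand of chromosome 2 at chr2:22588103-22589647, between Gm13341, a copy of mt-Co2, and Gm13339, a copy of mt-Nd2, neither of which is a member. These 3 genes lie within the body of Myo3a, which runs on the opposite strand, and no exon of Myo3a overlaps them. Myo3a had 2 counts in WT replicate 2 and 0 in the other 5 libraries. The nearest gene to the right of the chromosome 1 stretch, 62432 bases away, is Lmbrd1, a lysosomal membrane protein gene, which did not pass the test (log2 fold change 0.10 with an SE of 0.10, adjusted p = 0.759, edgeR's quasi-likelihood test).

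Of the 8 members, 5 are identical to the mitochondrial gene over their whole length: Gm28661 (681 bases), Atp6-ps (678), Gm28437 (783), Gm10222 (294) and Gm28439 (876, the first part of the 1378 bases of mt-Nd4). A read that lies wholly within one of these 5 holds no base that tells the copy from the mitochondrial transcript. The start of Gm28437, the copy of mt-Co3, is shown as an example of this identity. Its first 100 bases, which mt-Co3 shares without a difference, are all in lower case.
Gm28437 and mt-Co3: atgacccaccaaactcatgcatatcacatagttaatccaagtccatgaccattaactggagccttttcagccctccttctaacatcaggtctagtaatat

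Gm28438 differs from mt-Nd3 at 1 of 345 bases, T3C, where the mitochondrial base stands first and positions are counted from 1 at the start of the mitochondrial gene. This base lies in the start codon. The first 100 bases of both are shown, with the differing base in capitals.
Gm28438: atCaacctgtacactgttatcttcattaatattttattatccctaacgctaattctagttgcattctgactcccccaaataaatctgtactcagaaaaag
mt-Nd3: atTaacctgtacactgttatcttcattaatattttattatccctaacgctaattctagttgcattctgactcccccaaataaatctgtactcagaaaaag

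Of the 492 bases of Gm29216, 483 align to the last 483 bases of mt-Co1, with 1 differing base, A1066T. Gm13340 matches all 1545 bases of mt-Co1 with 37 differing bases, an identity of 97.6%. The stretch from base 1063 to base 1162 of mt-Co1 is present in both copies. It is shown because it holds the only differing base in the aligned part of Gm29216. Capitals mark, in each copy, the bases that differ from mt-Co1, and in mt-Co1 every base at which either copy differs. Gm13340 differs here by T1072C and C1134T.
Gm29216: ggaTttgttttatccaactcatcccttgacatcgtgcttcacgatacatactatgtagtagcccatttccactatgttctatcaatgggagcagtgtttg
Gm13340: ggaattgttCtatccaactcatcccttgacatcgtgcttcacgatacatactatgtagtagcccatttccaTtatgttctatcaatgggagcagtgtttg
mt-Co1: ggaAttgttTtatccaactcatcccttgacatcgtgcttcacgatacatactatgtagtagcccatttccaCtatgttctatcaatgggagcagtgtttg

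The start of mt-Co2 is shown with its copies Gm28661, a member on chromosome 1, and Gm13341, its counterpart beside Gm13340 on chromosome 2. Capitals mark C25T and G57A, the differences of Gm13341, and Gm28661 has none.
Gm28661: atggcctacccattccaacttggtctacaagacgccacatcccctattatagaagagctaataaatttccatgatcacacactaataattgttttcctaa
Gm13341: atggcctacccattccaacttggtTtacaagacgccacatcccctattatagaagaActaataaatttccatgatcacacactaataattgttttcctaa
mt-Co2: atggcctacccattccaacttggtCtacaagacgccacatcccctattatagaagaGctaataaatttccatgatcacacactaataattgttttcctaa

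In the mitochondrial genome the end of mt-Atp8 overlaps the start of mt-Atp6, and Atp6-ps, which copies mt-Atp6, holds this overlap. In its first 100 bases, capitals mark the 43 bases that are also the end of mt-Atp8.
Atp6-ps: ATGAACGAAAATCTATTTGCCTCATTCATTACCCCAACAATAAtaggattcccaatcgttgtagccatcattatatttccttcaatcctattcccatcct

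The length of unbroken identity differed between the chromosome 1 copies and Gm13340. The longest identical run was 342 bases in Gm28438 and 479 bases in Gm29216, but 148 bases in Gm13340. Of all 50-base windows, 99.0% in Gm28438 and 97.1% in Gm29216 had an exact match in the mitochondrial transcripts, against 27.5% in Gm13340. The read length is not given in the sources used here, nor is whether the mitochondrial chromosome was part of the genome used for alignment. How many of the counts came from mitochondrial RNA was therefore not tested.

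**Figure D1:**
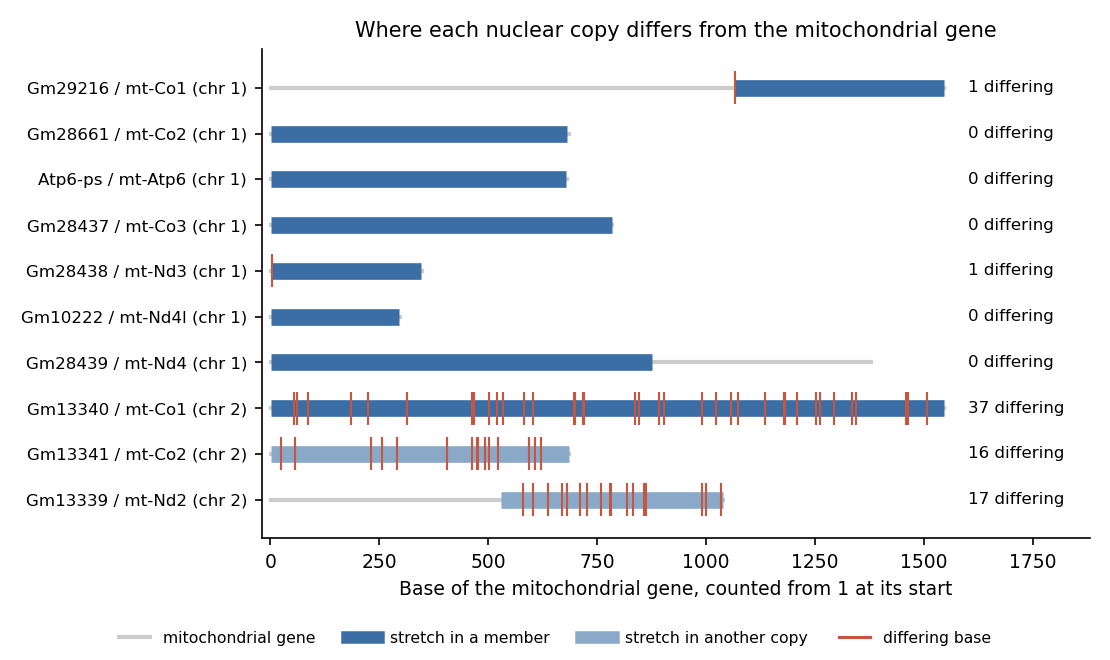
Alignment of the 8 members and 2 other copies (rows) to the mitochondrial gene each one copies. The x axis is the base of that gene, grey lines are its whole length, blue bars the aligned stretch and red ticks the differing bases. The chromosome 1 copies have 0 or 1 differing base each, and the chromosome 2 copies have 16 to 37, spread along their length. Gm13341 also has 1 gap, which is not marked.

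The libraries held 9595701 to 42101393 counts in WT and 23550718 to 31048606 in CharmeKO, with WT replicate 3 the lowest. Charme, the targeted gene, was counted 26, 15 and 4 times in WT replicates 1 to 3 and 7, 0 and 0 times in CharmeKO replicates 1 to 3, so CharmeKO replicate 1 still held reads of it. Xist counts exceeded those of the Y-linked gene Ddx3y in WT replicate 1 and CharmeKO replicates 1 and 2, and the reverse held in the other 3 libraries.

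All 8 members were higher in every CharmeKO library than in every WT library. Their summed level (CPM, each count divided by the TMM-normalized size of its library) was 110, 83.5 and 91.7 in WT replicates 1 to 3 and 299, 396 and 213 in CharmeKO replicates 1 to 3. The groups did not overlap, CharmeKO replicate 3 lay nearest to WT, and the CharmeKO libraries were spread more widely than those of WT. The mean was 95.01 ± 13.5 CPM in WT and 303 ± 91.8 CPM in CharmeKO (SD, n = 3 each), a ratio of 3.19. In raw counts the members held 4676, 2195 and 853 reads in WT and 8566, 9696 and 6478 in CharmeKO, or 0.00786% to 0.0111% of a WT library and 0.0209% to 0.0412% of a CharmeKO library.

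The libraries that Xist and Ddx3y separate are given apart, as values with no test, since each set has an arm of 1 library. Among the libraries with more Xist, 1 WT library stood at 110 CPM and 2 CharmeKO libraries at 299 and 396, a log2 ratio of means of 1.66. Among those with more Ddx3y, 2 WT libraries stood at 83.5 and 91.7 CPM and 1 CharmeKO library at 213, a log2 ratio of 1.28. Over all 6 libraries the log2 ratio was 1.67. The part of this split in the levels of the copies was not tested.

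The genes of complex I subunits held both the widest and the narrowest difference. Gm28438, the copy of mt-Nd3, a small membrane subunit, stood at 2.37, 1.75 and 1.40 CPM in WT and at 17.04, 26.9 and 13.2 CPM in CharmeKO. The groups did not overlap, and the lowest WT library rested on 13 counts. The log2 fold change was 3.30 with a standard error (SE) of 0.30, the 42nd highest of the 15789 genes tested.

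Gm28439, the copy of mt-Nd4, a core subunit of the proton-pumping arm, stood at 11.7, 9.39 and 12.1 CPM in WT and at 26.6, 32.1 and 15.8 CPM in CharmeKO. Its log2 fold change was 1.17 (SE 0.23), the lowest of the members, and its lowest CharmeKO library was closer to WT than to the highest CharmeKO library. Gm10222, the copy of mt-Nd4l, was the least abundant member, at 1.01, 1.18 and 1.51 CPM in WT and 4.08, 4.54 and 1.97 CPM in CharmeKO. It rested on 14 to 43 counts a library in WT and 60 to 117 in CharmeKO, and its log2 fold change of 1.56 had the widest SE, 0.40.

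Among the copies of cytochrome c oxidase genes, Gm28437, the copy of mt-Co3, had the widest difference, with 23.6, 13.99 and 16.7 CPM in WT and 69.9, 98.9 and 55.5 CPM in CharmeKO. Its log2 fold change was 2.03 (SE 0.23). Gm28661, the copy of mt-Co2, which carries the copper centre that takes electrons from cytochrome c, stood at 17.9, 13.95 and 17.4 CPM in WT and 42.8, 55.4 and 27.6 CPM in CharmeKO. Its log2 fold change was 1.35 (SE 0.22).

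Both copies of mt-Co1, the catalytic subunit of cytochrome c oxidase, showed much the same difference from different chromosomes. Gm29216 on chromosome 1 stood at 16.3, 14.6 and 13.2 CPM in WT and 43.7, 58.9 and 34.7 CPM in CharmeKO, a log2 fold change of 1.62 (SE 0.19). Gm13340 on chromosome 2, the member with 37 differing bases, stood at 8.67, 6.43 and 7.53 CPM in WT and 18.6, 28.3 and 17.2 CPM in CharmeKO, a log2 fold change of 1.495 (SE 0.21). The log2 ratio of Gm13340 to Gm29216 counts was -0.97 ± 0.19 in WT and -1.10 ± 0.12 in CharmeKO. This shift, -0.13, was smaller than the SD within WT and slightly larger than that within CharmeKO.

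Atp6-ps, the copy of the ATP synthase subunit gene, was the most abundant member, at 28.3, 22.2 and 21.8 CPM in WT and 76.3, 91.4 and 46.8 CPM in CharmeKO. Its log2 fold change was 1.56 (SE 0.21). In each of the 8 members CharmeKO replicate 2 was the highest library and CharmeKO replicate 3 the lowest of CharmeKO, so the highest and lowest CharmeKO libraries were the same for every member. WT replicate 1 was the highest WT library for 6 of the 8.

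**Figure D2:**
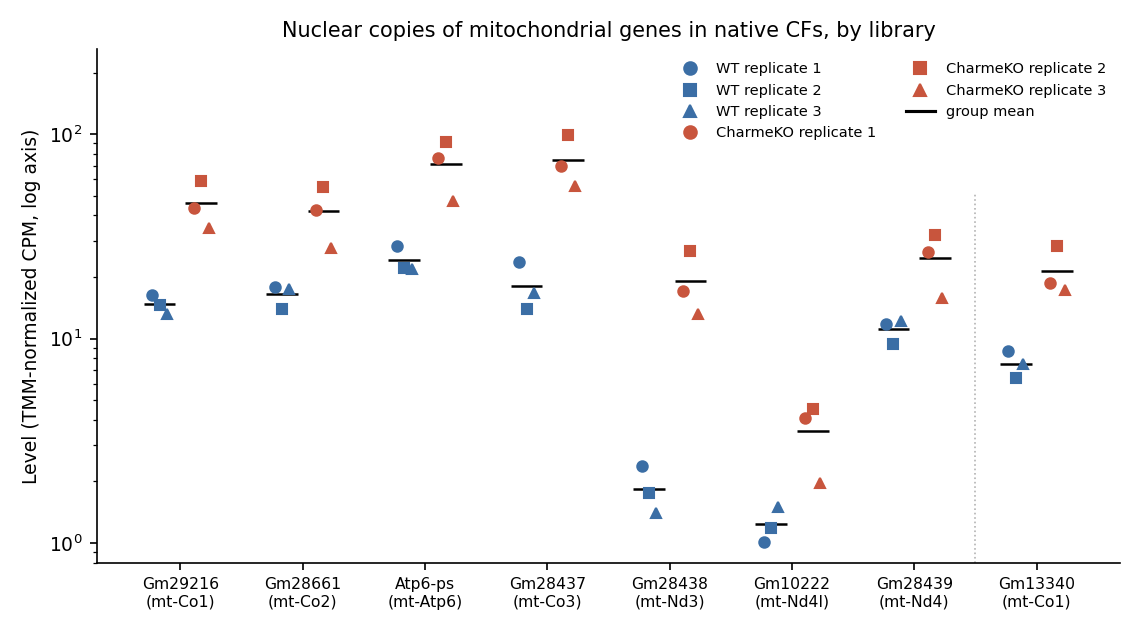
Level of each member in every library (y axis, TMM-normalized CPM, log axis), with the chromosome 1 copies in their gene order and Gm13340 at the right. Points are libraries and lines are group means, and in all 8 members the 3 CharmeKO libraries lie above the 3 WT libraries, with CharmeKO replicate 2 on top.

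By the adjusted p of edgeR's quasi-likelihood test at a threshold of 0.05, 7 of the 8 members were called higher in CharmeKO and Gm10222 was not. Over all 15789 tested genes 0.83% were called in either direction and 0.418% were called higher. DESeq2, whose calls of higher genes made up 0.975% of those tested, called all 8. The share of all tested genes with the 3 CharmeKO libraries above the 3 WT libraries was 9.58%. The members were named with these calls in view, so these shares are given for scale and nothing is read from them. The median log2 fold change was 1.56 over the members and 0.01 over all tested genes. All 8 members passed the filter on low counts.

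**Figure D3:**
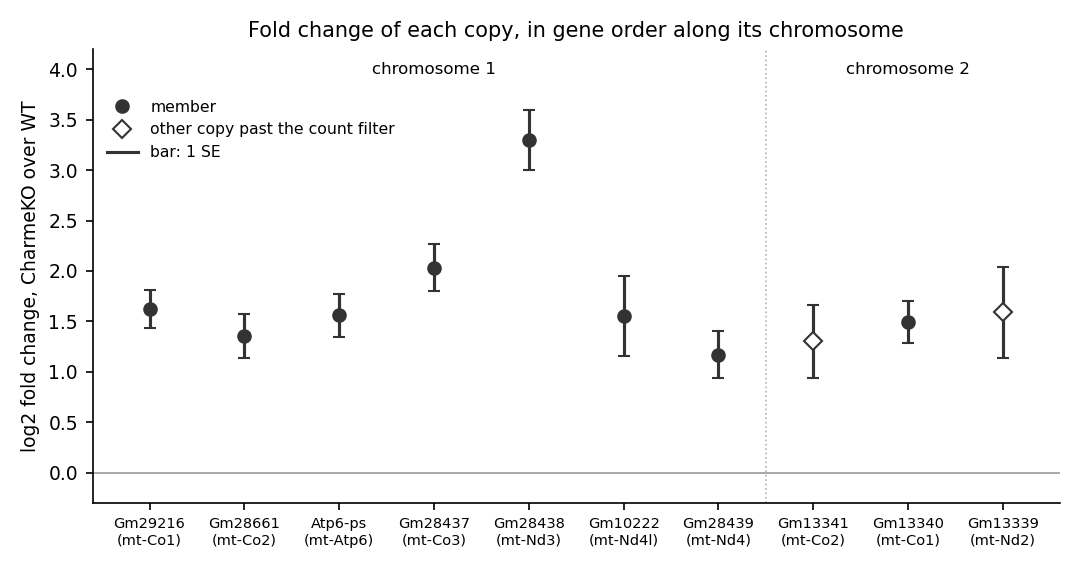
Log2 fold change of CharmeKO over WT (y axis, bars 1 SE) for each copy, in gene order along its chromosome. The chromosome 1 copies are read from the 5′ end. The chromosome 2 copies run the other way, by rising position on the minus strand. Filled circles are members and open diamonds the other 2 copies past the count filter. Values run from 1.17 to 2.03 apart from Gm28438 at 3.30.

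The members did not all differ by the same factor. Gm28438 made up 1.93% ± 0.35 of the member counts in WT and 6.24% ± 0.55 in CharmeKO (SD, n = 3 each), with 1.52% to 2.16% in the WT libraries and 5.70% to 6.80% in the CharmeKO libraries. The share of Gm28437 was 18.8% ± 2.42 in WT and 24.8% ± 1.34 in CharmeKO, again without overlap. Shares of Gm28439 were 11.7% ± 1.35 in WT and 8.14% ± 0.72 in CharmeKO, and those of Gm28661 were 17.3% ± 1.45 and 13.8% ± 0.69, both lower in every CharmeKO library. Shares sum to the whole, so a higher share of some members goes with a lower share of others.

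Ratios of counts within a library show the same without the total. The log2 ratio of Gm28438 to Atp6-ps was -3.57, -3.66 and -3.96 in WT and -2.16, -1.76 and -1.82 in CharmeKO. The gap between the groups, 1.82, was wider than the SD within WT (0.20) or CharmeKO (0.22). These neighbours lie within one stretch of 4663 bases, and the ratio uses the same contrast that chose the members, so it is a description. For Gm28437 over Atp6-ps the log2 ratio was -0.44 ± 0.21 in WT and 0.08 ± 0.19 in CharmeKO, and for Gm28439 over Atp6-ps it was -1.12 ± 0.24 and -1.53 ± 0.03.

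**Figure D4:**
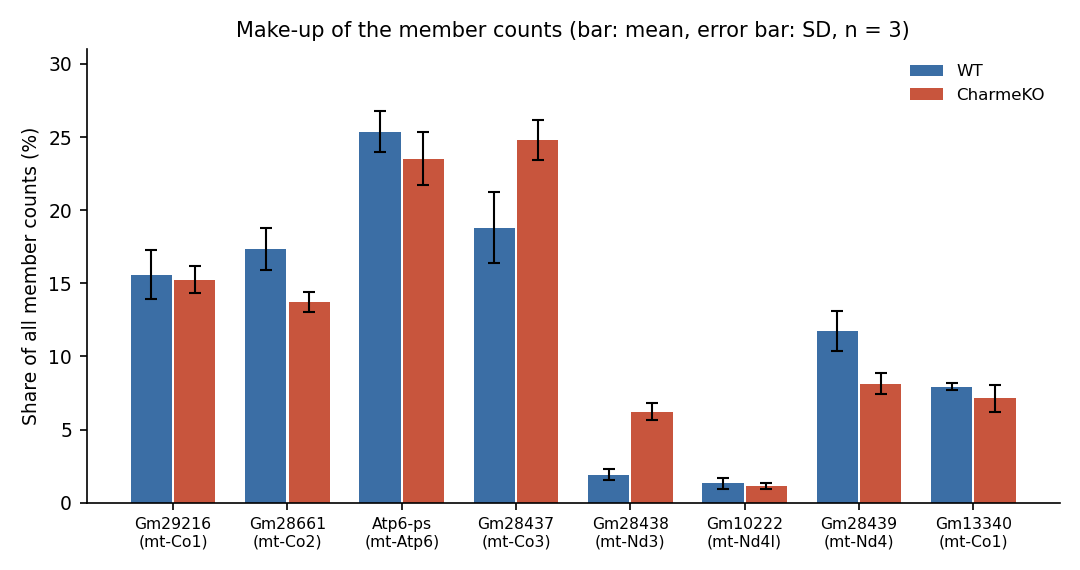
Share of all member counts held by each member (y axis, %), as the mean of the 3 WT and the 3 CharmeKO libraries with SD as error bars. Gm28438 goes from 1.93% to 6.24% and Gm28437 from 18.8% to 24.8%, while Gm28439 and Gm28661 hold smaller shares in CharmeKO.

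Levels of different genes were compared per length, as CPM per kb of transcript. In WT the order ran from Atp6-ps at 35.5 ± 5.35 through Gm29216 at 29.9 ± 3.16, Gm28661 at 24.1 ± 3.16 and Gm28437 at 23.1 ± 6.33 to Gm28439 at 12.7 ± 1.70 CPM per kb. Gm28438, Gm13340 and Gm10222 closed it at 5.33 ± 1.43, 4.88 ± 0.73 and 4.19 ± 0.86. Neighbours among these 3, like those among the first 4, differed by less than the sum of their SDs, while Gm28439 stood apart on both sides.

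In CharmeKO Atp6-ps, Gm28437 and Gm29216 stood highest, at 105.5 ± 33.5, 95.5 ± 28.2 and 93.0 ± 24.9 CPM per kb. Gm28661 at 61.6 ± 20.4, Gm28438 at 55.3 ± 20.5 and Gm28439 at 28.4 ± 9.43 followed, and no neighbours from Atp6-ps down to Gm28439 differed by more than the sum of their SDs. Gm13340 and Gm10222 stayed lowest at 13.8 ± 3.89 and 12.01 ± 4.66. Gm28438 thus stood below Gm28439 in WT and above it, by less than the sum of the SDs, in CharmeKO.

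Other nuclear copies were found by sequence alone, as genes off the mitochondrial chromosome whose transcript matches a mitochondrial transcript at 80% identity or more over at least 50% of its length. The count table held 11 besides the members, of which 2 passed the filter on low counts, the chromosome 2 neighbours of Gm13340. Gm13341, the copy of mt-Co2, has 16 differing bases and 1 gap (672 bases against 684 in mt-Co2). It stood at 1.22, 2.28 and 2.47 CPM in WT and 3.91, 6.54 and 3.85 CPM in CharmeKO. Its log2 fold change was 1.30 (SE 0.36, adjusted p = 0.164, edgeR), and DESeq2 called it (adjusted p = 0.0354). Gm13339, the copy of mt-Nd2, a core subunit of complex I, with 17 differing bases, stood at 0.61, 0.68 and 1.08 CPM in WT and 2.34, 2.98 and 1.51 CPM in CharmeKO. Its log2 fold change was 1.59 (SE 0.45, adjusted p = 0.176, edgeR, and 0.0526 by DESeq2).

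Neither gene passed edgeR's threshold. Both passed an unadjusted p of 0.05 by edgeR, and in both the 3 CharmeKO libraries lay above the 3 WT libraries. Over all tested genes 12.8% passed that unadjusted p and 9.58% had all CharmeKO libraries above all WT libraries. The 9 copies that did not pass the filter had 0 to 30 counts in total over the 6 libraries, and 4 of them had none. The copy with 30 counts, Gm4076, matches mt-Nd5 with 45 differing bases and no identical run above 82 bases. The 10 copies past the filter had identities of 95.9% to 100% with the mitochondrial gene, and the 9 others of 81.6% to 95.2%.

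Nuclear genes that act with the mitochondrial ones were examined next. The respiratory chain is built from mitochondrial and nuclear subunits, and 82 of 89 nuclear oxidative phosphorylation genes passed the filter. Of these, 77 had a log2 fold change above 0 and 1 was called higher, 0 were called lower, and 39 had all CharmeKO libraries above all WT libraries. Over all tested genes 51.2% had a log2 fold change above 0, 0.418% were called higher and 9.58% had all CharmeKO libraries above all WT libraries. Their median log2 fold change was 0.23, against 0.01 over all tested genes, and their summed level was 4575 to 4727 CPM in WT and 5173 to 5401 CPM in CharmeKO. The summed level was thus higher in every CharmeKO library, by a far smaller factor than that of the nuclear copies.

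The gene called was Uqcrq, a small subunit of complex III, which rose from 40.1 ± 2.63 to 76.2 ± 3.31 CPM (log2 fold change 0.92, SE 0.11, adjusted p = 0.00115, edgeR). The most abundant genes of the list did not pass: the ATP synthase genes Atp5f1b and Atp5f1a had log2 fold changes of 0.08 (SE 0.12, adjusted p = 0.825) and 0.04 (SE 0.12, adjusted p = 0.924). Cox4i1, a cytochrome c oxidase subunit, had 0.18 (SE 0.12, adjusted p = 0.576) and Uqcrc1, a complex III core subunit, 0.08 (SE 0.11, adjusted p = 0.818).

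The list for mitochondrial DNA upkeep and for the making, processing and decay of mitochondrial RNA held 49 nuclear genes, 48 of them tested. None was called by edgeR or by DESeq2, and 2 passed an unadjusted p of 0.05 by edgeR, which 12.8% of all tested genes did. Its median log2 fold change was 0.16 and its summed level was 678 to 706 CPM in WT and 723 to 733 CPM in CharmeKO. The 4 most abundant were Polg, the mitochondrial DNA polymerase (log2 fold change 0.10, SE 0.12), Fastk, a member of a family of mitochondrial RNA-binding proteins (-0.10, SE 0.11), Rexo2, an oligoribonuclease (0.20, SE 0.15), and Angel2, a phosphatase of RNA ends (-0.03, SE 0.12). Their adjusted p-values ran from 0.627 to 0.941.

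Markers of heart cell types give the make-up of the isolated cells, and in bulk RNA fewer cells of a type and less RNA per cell cannot be told apart. Fibroblast markers, led by Gsn and Col3a1, summed to 40695 to 43288 CPM in WT and 33573 to 41984 CPM in CharmeKO, so the labelled cells carried their markers in every library. Endothelial markers summed to 8630 to 10582 and 9301 to 11742 CPM, led by Cdh5 and Fabp4. Mural markers, led by Rgs5 and Pdgfrb, were at 2114 to 2427 and 2176 to 2579 CPM, and leukocyte markers, led by Cd79a and Ptprc, at 28.8 to 53.9 and 39.1 to 51.0 CPM. The groups overlapped in all 4 sums. By edgeR 0 of 12 fibroblast, 0 of 10 endothelial, 0 of 8 mural and 0 of 8 leukocyte markers were called, while 4, 4, 1 and 0 passed an unadjusted p of 0.05, as did 12.8% of all tested genes. DESeq2 called 1 gene lower in each of the first 3 lists (Col1a1, Vwf and Cspg4, named after their values were seen) and 0 in the leukocyte list, and 2.5% of all tested genes in either direction.

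Cardiomyocyte markers, genes of a cell type rich in mitochondria, also had a higher summed level in every CharmeKO library. Their summed level was 910, 808 and 908 CPM in WT and 1356, 1111 and 1001 CPM in CharmeKO, a smaller difference than that of the copies. The order within CharmeKO also differed, since replicate 1 led the cardiomyocyte markers and replicate 2 led the copies. Of 15 tested markers 14 had a log2 fold change above 0, 9 did not overlap between the groups, 3 were called higher and none of the 16 was at 0 in all libraries. Over all tested genes these shares were 51.2% above 0, 9.58% without overlap and higher, and 0.418% called higher.

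The markers called were Mb, myoglobin (log2 fold change 0.90, SE 0.17), Myh6, the main myosin heavy chain of adult mouse heart (0.85, SE 0.16), and Tnni3, cardiac troponin I (0.95, SE 0.16). Myh6 and Tnni3 were named after their values were seen. Their adjusted p-values were 0.0339, 0.0292 and 0.0200 by edgeR, and DESeq2 called 6 markers. All 3 calls were lost without CharmeKO replicate 1 (log2 fold changes 0.74, 0.67 and 0.81), without CharmeKO replicate 2 (0.88, 0.85 and 0.94) or without WT replicate 3 (0.90, 0.83 and 0.90). Those of Mb and Myh6 were also lost without WT replicate 1 (1.00 and 0.81), and that of Myh6 with a term for the Xist split (0.76). Atp2a2, the calcium pump and the most abundant marker, had a log2 fold change of -0.06 (SE 0.12, adjusted p = 0.883, edgeR). It stood at 353 ± 18.8 CPM in WT and 339 ± 22.0 CPM in CharmeKO, so a large part of the summed marker level differed little. The part of cardiomyocyte RNA in the levels of the copies was not tested.

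Erythroid markers, led by the globin genes Hbb-bs and Hba-a1, summed to 26780 to 39227 CPM in WT and 24409 to 31740 in CharmeKO, and 1 of 7 was called, Slc4a1, lower. RNAs held in the nucleus, led by Malat1 and Meg3, summed to 1113 to 1292 and 914 to 1349 CPM, with 0 of 4 called by edgeR or DESeq2 and 1 at an unadjusted p of 0.05 by edgeR. Genes that respond to tissue dissociation, led by Egr1 and Junb, summed to 33789 to 49841 and 38626 to 43667 CPM. Of these 2 of 12 were called higher, the heat shock genes Hspa1a and Hspa1b. In this list 6 genes had a log2 fold change above 0 and 6 below, with a median of 0.04. Over all tested genes 0.83% were called in either direction, 0.418% were called higher and 12.8% passed an unadjusted p of 0.05 by edgeR. Slc4a1, Hspa1a and Hspa1b were named after their values were seen.

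**Figure D5:**
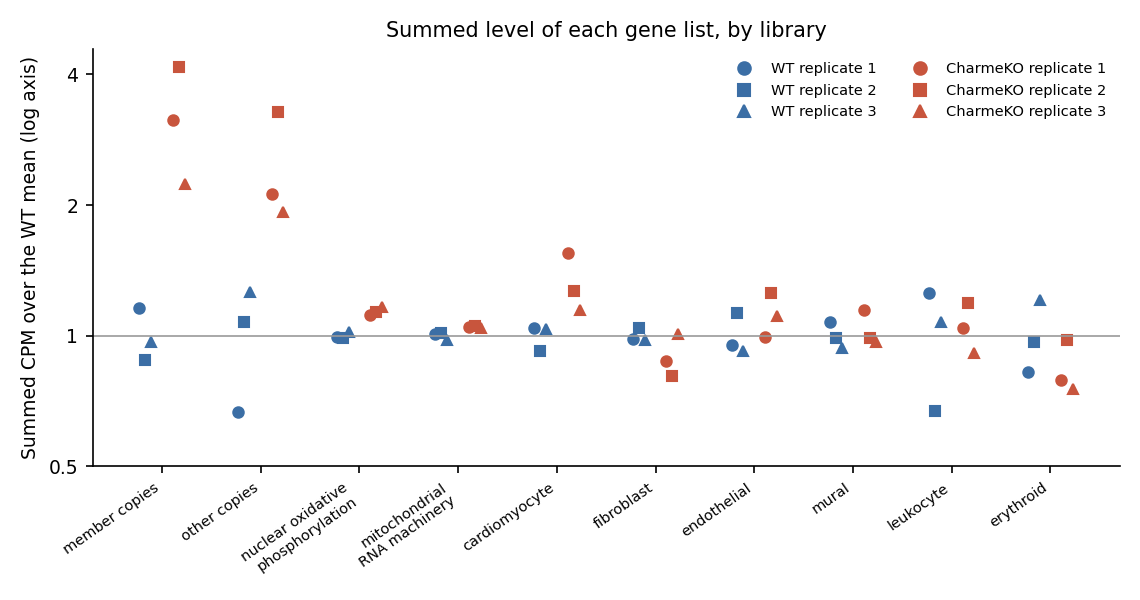
Summed CPM of each gene list in every library, divided by the mean of the WT libraries (y axis, log axis). The member copies reach the highest multiples, the other copies follow, and the sums of cardiomyocyte markers, nuclear oxidative phosphorylation genes and mitochondrial RNA genes are also higher in all 3 CharmeKO libraries. In the other lists shown the libraries of both groups overlap.

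The genes whose pattern was most like that of the members were found by the Pearson correlation of log2(CPM + 1) with the mean over members across the 6 libraries. With 6 points split between 2 groups such values are high for many genes, and 442 of 15781 other tested genes had an r above 0.9. The 8 highest, from 0.990 to 0.998, were Emc7, Gm12002, Chid1, Smu1, Tlr6, Rbis, Klhl20 and Zfp979. Emc7, a subunit of the membrane insertion complex of the endoplasmic reticulum, had an r of 0.998 but moved only from 55.9 ± 0.98 to 69.3 ± 4.05 CPM. Zfp979, a zinc finger gene, had an r of 0.990 and a difference of the size seen in the members, from 18.8 ± 0.42 to 69.3 ± 20.6 CPM. Tlr6, with an r of 0.992, also had a difference of that size at a low level, from 0.72 ± 0.22 to 3.69 ± 0.89 CPM. The non-member copies Gm13339 and Gm13341 had an r of 0.954 and 0.869, ranks 123 and 659 of the 15781.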

How the data were processed

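Poly(A) RNA of native CFs was sequenced with a directional kit. The authors aligned Q30-filtered reads with STAR to GRCm39 (the submitters' processing notes also name GRCh38), counted them per gene with STAR on Ensembl genes to which Charme was added, and kept the "reverse" strand column. The deposited values are these raw counts, without normalization. STAR's gene counts use reads placed at 1 position only. Counts are given as CPM on TMM-normalized library sizes. A count of 0 allows up to 3 counts (0.0705 to 0.323 CPM a library), for counting error only.

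The 15789 of 49548 genes that reached 10 counts in 2 or more of the 6 libraries were tested with edgeR 4.0.16 in R 4.3.3 (quasi-likelihood, Benjamini-Hochberg adjustment over all tested genes, threshold 0.05). SEs were derived from the F statistics. The common dispersion was 0.0410. On simulated counts with 200 of 15321 genes changed by 1.5 on the log2 scale, edgeR recovered 172 and called 4 others. DESeq2 recovered 178 and called 19 others. The changed genes were drawn from those with higher mean counts only. With 0 genes changed, edgeR called 0 and DESeq2 called 4. Alternatives were DESeq2 1.42.0, other scalings and filters, a replicate block, each library left out and, added after seeing the data, a term for the Xist split, sums within that split and a sum over the identical members.

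Copies were aligned with blastn 2.17.0 to the transcripts of the GENCODE annotation of GRCm38, matched by gene ID, and their sequences are those transcripts. The RefSeq promoter table holds 0 of the 8 members. The members and lists were chosen with earlier results of these data known. Named by rule were all members, other copies past the filter, called genes and the 4 most abundant of the oxidative phosphorylation and mitochondrial RNA lists, the 8 genes most like the members and the 2 most abundant of each marker list.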

Additional observations from a re-analysis of the deposited data

How the results depend on the processing

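As a description of members chosen on this contrast, all 112 member results under the 14 alternative fits kept their direction. Gm28438, Gm28437, Gm29216, Atp6-ps and Gm13340 were called in 14 of 14 fits, Gm28661 in 10, Gm28439 in 8 and Gm10222 in 3. Without WT replicate 1, WT replicate 3, CharmeKO replicate 1 or CharmeKO replicate 2, Gm28661 lost its call (log2 fold changes 1.43, 1.39, 1.34 and 1.10) and so did Gm28439 (1.23, 1.23, 1.12 and 0.94). Gm28439 also lost it without WT replicate 2 (1.06) and with the Xist term (0.96). The number of members called ran from 5 to 8 over the leave-outs. The log2 ratio of the summed member level, 1.67, ran from 1.43 to 1.87 over the leave-outs and from 1.61 to 1.75 over scalings and sums, with 1.64 for the replicate block, and was 1.28 in libraries with more Ddx3y. Calls among the other copies went from 0 to 1 with DESeq2 and 2 with no filter beyond 1 count. Calls among oxidative phosphorylation genes went from 1 to 4 with DESeq2, 7 with no filter, 2 with the replicate block and 1 to 3 over the leave-outs, with 3 reached without WT replicate 2. Calls among all genes went from 131 to 394 with DESeq2, 699 with no filter and 302 with the replicate block, and ran from 61 (without CharmeKO replicate 1) to 349 (without WT replicate 2). They were 71 without WT replicate 1, and 67 both without WT replicate 3 and without CharmeKO replicate 2. The causes were not tested. Same-numbered libraries deviated together by correlations of 0.216, 0.0535 and 0.161, so the numbers were not taken to pair the samples. Every WT library correlated best with its own number, a hint from the data and not from the design. The lists of mitochondrial RNA genes had 0 calls in every fit. Depth was lowest in WT replicate 3, where Gm10222 and Gm28438 rested on 14 and 13 counts.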
